A study of Mus musculus with 14 samples.

Results

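The zinc finger gene cluster described here is a run of 10 genes on mouse chromosome 6, from Zfp786 to Repin1. It was read through the H3K27me3 peaks within 5 kb of the RefSeq body of a member. Of the 74458 peaks in the deposited table, 26 met this rule, and each of the 10 genes held at least 1 of them. Because neighboring genes lie close together, 5 of the peaks lay within the window of 2 members. The cluster was chosen on measured values. Zfp783 and Zfp956 were picked for more H3K27me3 in the Hoxa deletion, and Repin1 for less in the Hmx1 deletion, and the differences in those directions are therefore descriptions without a test.

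The libraries came from mouse embryonic stem cells (mESCs) grown with LIF on CD1 feeder cells and edited with CRISPR-Cas9. Per the study, both alleles of a Polycomb loop anchor were removed in each line, which took out Hoxa2 to Hoxa13 in the Hoxa deletion (3 libraries), the Wnt6 anchor in the Wnt6 deletion (2 libraries) or the Hmx1 anchor in the Hmx1 deletion (2 libraries). H3K27me3 was profiled by Cut&Tag, in which an antibody brings the transposase Tn5 to the mark and adapters are inserted beside it. No column of unedited cells was used here, and each deletion was set against the other deletions pooled, as the study also set each line against the others. The labels name no clones or cultures, and the study's wording is of 1 clone per line, so that deletion and clone cannot be told apart and the spread between libraries may be technical. IgG libraries were not used here. The Hoxa cluster lies on the same chromosome as the zinc finger genes, with Hoxa2 4.35 Mb from the first member peak and 3.56 Mb from the last. Wnt6 and Hmx1 lie on other chromosomes.

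Zinc finger proteins of the C2H2 type bind DNA through tandem fingers that each hold a zinc ion, and many of them carry a KRAB domain through which they recruit repressors. Their genes often lie in clusters that arose by tandem duplication. H3K27me3 is written by Polycomb repressive complex 2, whose catalytic subunit EZH2 methylates lysine 27 of histone H3. The complex settles on unmethylated CpG islands of silent genes, and the mark can spread from there along the chromosome. The Ezh2 gene itself lies 218 kb from the first member peak, on the side away from the Hoxa cluster.

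Promoters rich in CpG are the stretches on which Polycomb is known to settle, and the start windows of 4 members are therefore printed with each CG in capitals. Each window holds 300 bases around a transcript start that RefSeq lists, most of them before it (assembly GRCm38.p6, which is mm10), 5′ to 3′ on the gene's strand. In the values that follow, a start means this listed start, which need not be the end of the annotated gene body. At Zfp786, Zfp282, Zfp777, Zfp746 and Zfp467 the window lay wholly inside the body, by 5.44 kb at Zfp786, 1.96 kb at Zfp777 and less than 1 kb at the others. Zfp783 (chr6:47942925-47943224, plus strand) and Zfp956 (chr6:47953140-47953439, plus strand) are the genes picked for the Hoxa deletion. Zfp777 (chr6:48047745-48048044, minus strand) held the most CG of the members, and Zfp467 (chr6:48445041-48445340, minus strand) carried the strongest H3K27me3 of the cluster.
Zfp783: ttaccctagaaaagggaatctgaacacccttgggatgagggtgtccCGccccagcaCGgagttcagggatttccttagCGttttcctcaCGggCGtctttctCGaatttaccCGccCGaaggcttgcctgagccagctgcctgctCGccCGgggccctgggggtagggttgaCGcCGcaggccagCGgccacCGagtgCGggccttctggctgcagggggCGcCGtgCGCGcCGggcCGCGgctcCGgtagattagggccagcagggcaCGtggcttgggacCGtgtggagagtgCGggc
Zfp956: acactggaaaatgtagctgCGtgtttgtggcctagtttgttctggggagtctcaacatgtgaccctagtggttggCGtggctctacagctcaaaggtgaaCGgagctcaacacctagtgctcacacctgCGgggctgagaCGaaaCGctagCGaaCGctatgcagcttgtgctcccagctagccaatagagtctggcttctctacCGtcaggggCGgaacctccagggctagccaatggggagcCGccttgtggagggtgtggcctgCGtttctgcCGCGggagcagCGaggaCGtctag
Zfp777: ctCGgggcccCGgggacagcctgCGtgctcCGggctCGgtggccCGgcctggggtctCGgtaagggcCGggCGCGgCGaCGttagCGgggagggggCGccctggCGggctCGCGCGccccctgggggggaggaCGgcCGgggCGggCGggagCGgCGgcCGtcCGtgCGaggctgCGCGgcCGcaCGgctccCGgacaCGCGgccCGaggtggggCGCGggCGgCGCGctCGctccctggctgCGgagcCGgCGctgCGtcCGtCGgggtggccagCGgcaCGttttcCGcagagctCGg
Zfp467: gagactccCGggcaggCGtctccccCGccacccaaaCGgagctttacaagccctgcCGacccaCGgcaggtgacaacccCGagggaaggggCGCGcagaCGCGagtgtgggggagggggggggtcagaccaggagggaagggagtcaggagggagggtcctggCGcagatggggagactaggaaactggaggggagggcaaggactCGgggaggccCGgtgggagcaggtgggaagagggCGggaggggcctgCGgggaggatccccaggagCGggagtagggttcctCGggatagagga

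Of the 10 members, 9 had such a window in the RefSeq table, all except Repin1. The motif searched was CG, which reads the same on both strands and cannot overlap itself. Among all 32851 windows of the table, 94.6% held at least 1 CG and 33.0% held at least 16, and the median was 7. The 9 members ranged from 14 in Zfp212 to 51 in Zfp777, with a median of 21. In the printed windows, Zfp783 held 26, Zfp956 held 16 and Zfp467 held 18. Zfp746 held 39, Zfp786 held 23, and Zfp398 and Zfp282 held 21 each. The median GC content of the member windows was 66.3%, against 52.7% over all windows. Each of the 9 windows overlapped an H3K27me3 peak, but the share of all windows that do so is not given here, and this is a description. The windows of Zfp783, Zfp786, Zfp777, Zfp746 and Zfp467 lay whole within a peak, and that of Zfp212 shared 108 of its 300 bases with one.

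Library totals over the peaks ranged from 6016500 to 36563541 counts. Values are CPM, the counts of a peak scaled to a common library size with edgeR's TMM factors, and levels of different peaks are set side by side only per kb of peak. Pearson's r of log2 CPM over all peaks was 0.953 to 0.972 for the 5 pairs within a deletion and 0.913 to 0.976 for the other 16 pairs. Developmental genes that are silent in mESCs had their highest peak at 49.1 to 116 CPM per kb, in 6 of 6 genes. Of 8 pluripotency genes, 6 held a peak, with a median of 6.84 CPM per kb for the highest one and the largest value, 55.6, at Esrrb, while Tdgf1 and Dppa4 held none. The 4 feeder genes held peaks of 34.0 to 88.0 CPM per kb. The part of feeder cells in the results was not tested.

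In the Hoxa deletion, H3K27me3 was higher than in the other deletions at the starts of the genes from Zfp786 to Zfp777 other than Zfp212, by up to 2.37-fold at Zfp956. At 4 of the 5 Zfp467 peaks the log2 fold change was 0.16 or less, and at the starts of Zfp212 and Zfp746 it was 0.36 and 0.30. In the Hmx1 deletion a peak within Repin1 stood at 35.5% of the level in the other deletions. The log2 fold changes there at the starts of Zfp786, Zfp398, Zfp282, Zfp783, Zfp956 and Zfp777 ran from -1.10 to -0.79, and none of these was called. All 26 member peaks passed the filter on low counts and had a log2 fold change above 0 in the Hoxa deletion, with a median of 0.71, where the median over all 74441 tested peaks was -0.01. In the Hmx1 deletion the median at the members was -0.58, against -0.01 over all tested peaks. The pooled controls of this comparison hold the 3 Hoxa libraries, and against the Wnt6 deletion alone the median was -0.15, with -0.26 in place of -0.90 at the Zfp783 start and -0.33 in place of -1.08 at the Zfp956 start. These counts lean the way the choice of members fixed for part of them. Whether more cells carried the mark or each cell carried more of it cannot be told apart in bulk libraries.

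The member peaks took up 0.0926% ± 0.0033 of the counts in the Hoxa deletion (SD, n = 3), 0.0738% ± 0.00076 in the Wnt6 deletion (SD, n = 2) and 0.0682% ± 0.0017 in the Hmx1 deletion (SD, n = 2). The 3 groups did not overlap in this share. It includes the peaks on which Zfp783, Zfp956 and Repin1 were picked, so that the order is built in for part of it and is a description. How often other sets of peaks separate the groups is not given here.

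**Figure D1:**
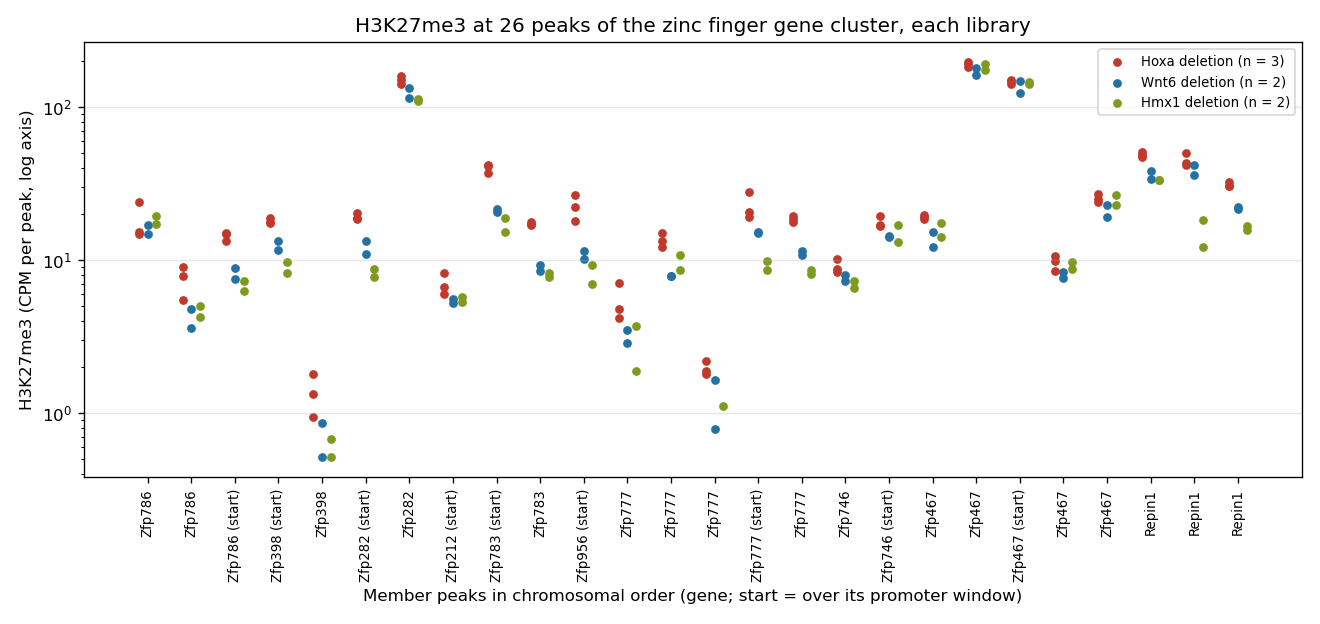
H3K27me3 at the 26 member peaks in chromosomal order from Zfp786 to Repin1, in CPM per peak on a log axis, with a dot for each library (3 Hoxa, 2 Wnt6 and 2 Hmx1 deletion libraries). Dots of the Hoxa deletion stand above those of both other deletions at 20 of the 26 peaks, and a library with 0 counts at a peak of Zfp777 has no dot.

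Zfp783, which RefSeq annotates as a long noncoding RNA gene despite its name, and Zfp956, a zinc finger protein gene beside it, held the member peaks called higher in the Hoxa deletion. The peak over the start of Zfp783 (chr6:47942681-47943809) measured 41.7, 37.1 and 41.2 CPM in the Hoxa deletion, 20.6 and 21.6 CPM in the Wnt6 deletion and 15.2 and 19.0 CPM in the Hmx1 deletion. Every Hoxa library lay above every other library, and the Wnt6 libraries lay just above the Hmx1 libraries without overlap. The means were 40.0 ± 2.52 CPM (SD, n = 3), 21.1 ± 0.689 CPM (SD, n = 2) and 17.1 ± 2.66 CPM (SD, n = 2), which gave a log2 fold change of 1.04 ± 0.11 (SE) for the Hoxa deletion against the others. The peak over the start of Zfp956 (chr6:47953172-47953700), inside the annotated body of Zfp783, measured 22.3, 18.0 and 26.7 CPM in the Hoxa deletion, 11.5 and 10.1 CPM in the Wnt6 deletion and 6.93 and 9.21 CPM in the Hmx1 deletion. Again the 3 groups stood apart in this order. The log2 fold change was 1.21 ± 0.14 for the Hoxa deletion and -1.08 ± 0.30 for the Hmx1 deletion.

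Between these starts, a peak in the body of Zfp783 (chr6:47951211-47952691) measured 17.8, 16.9 and 17.2 CPM in the Hoxa deletion, 8.44 and 9.30 CPM in the Wnt6 deletion and 7.77 and 8.23 CPM in the Hmx1 deletion. The 3 Hoxa libraries lay close together here, with a log2 fold change of 1.01 ± 0.13 against the others. These 3 peaks were the member peaks called higher in the Hoxa deletion, at a log2 fold change over 1 and an adjusted p under 0.05 in edgeR. The background was 0.566%, the share of all tested peaks called higher in this comparison, which served to choose the members. No member peak was called lower, and 732 of all 74441 tested peaks were. That share is too small for the absence among 26 peaks to be read as a result about the members. The count was 1 without replicate 1 of the Hmx1 deletion, 5 without replicate 1 and 6 without replicate 2 of the Wnt6 deletion. With Wnt6 libraries as the only controls it was 1, where 1.23% of all tested peaks were called either way, and with Hmx1 libraries as the only controls 9. For the other settings the share of all tested peaks is not given here, so that their counts cannot be read as a trait of the members. Without a minimum on the fold, 15 of the 26 member peaks were higher at an adjusted p under 0.05, and so were 4.32% of all tested peaks.

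**Figure D2:**
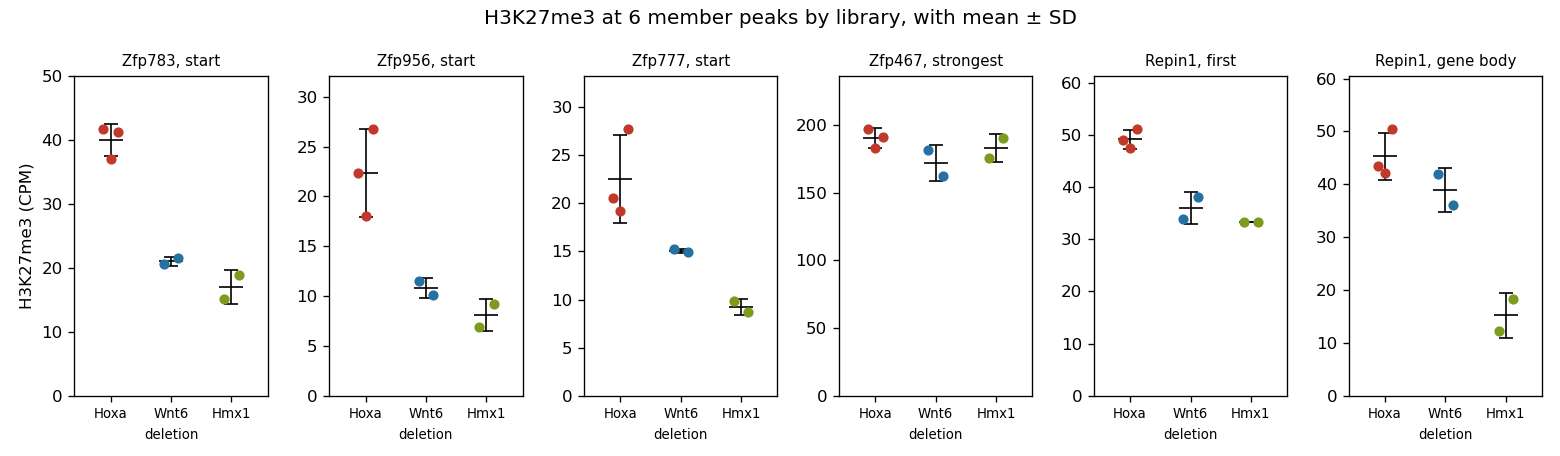
H3K27me3 in CPM at 6 member peaks, on axes that start at 0, with a dot for each library and the mean ± SD of each deletion (n = 3 for Hoxa, 2 for Wnt6 and 2 for Hmx1). The Hoxa libraries lie above the others at the starts of Zfp783, Zfp956 and Zfp777, the groups overlap at the strongest Zfp467 peak, and at the gene body peak of Repin1 the Hmx1 libraries (12.2 and 18.2 CPM) lie far below the others.

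The end of the run farthest from the Hoxa cluster holds Zfp786, Zfp398, whose human counterpart interacts with the estrogen receptor, and Zfp282, whose human counterpart was found as a repressor that binds the long terminal repeat of a human retrovirus. At the listed start of Zfp786, inside the gene body (chr6:47830200-47830990), H3K27me3 measured 14.8, 15.0 and 13.3 CPM in the Hoxa deletion, 7.51 and 8.91 CPM in the Wnt6 deletion and 6.25 and 7.24 CPM in the Hmx1 deletion. At the start of Zfp398, a peak that also covers the 5′ end of the Zfp786 body at position 47836197 (chr6:47835525-47836604), it measured 17.4, 17.7 and 18.8 CPM, 13.4 and 11.7 CPM, and 8.28 and 9.64 CPM in the same order. Both peaks ran in the order Hoxa, Wnt6, Hmx1 with no overlap between groups. Their log2 fold changes in the Hoxa deletion were 0.90 ± 0.14 and 0.73 ± 0.14, and in the Hmx1 deletion -0.79 ± 0.25 and -0.79 ± 0.20.

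The peak over the start of Zfp282 (chr6:47877358-47879145) had 18.5, 20.4 and 18.8 CPM in the Hoxa deletion, 13.3 and 11 CPM in the Wnt6 deletion and 8.79 and 7.71 CPM in the Hmx1 deletion. Here too the 3 groups stood apart, and the log2 fold changes were 0.93 ± 0.14 in the Hoxa deletion and -1.0 ± 0.23 in the Hmx1 deletion. Towards the other end of Zfp282 lay a much stronger peak (chr6:47904330-47906821), with 159.5, 142 and 151 CPM in the Hoxa deletion, 133 and 115 CPM in the Wnt6 deletion and 111 and 114 CPM in the Hmx1 deletion. The order of the deletions was kept at this peak, but the log2 fold changes were smaller, at 0.35 ± 0.08 and -0.32 ± 0.10. Within the same gene, the start held 7.86 CPM per kb and the far peak 53.1 CPM per kb, while the start of Zfp398 held 12.8 and that of Zfp786 13.2 CPM per kb.

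The remaining peaks of Zfp786 and Zfp398 were mixed. Beyond the end of Zfp786, a peak over the start of Pdia4, which encodes a protein disulfide isomerase of the endoplasmic reticulum, was the strongest near Zfp786 (chr6:47813134-47813811). It measured 15.2, 14.8 and 24.0 CPM in the Hoxa deletion, 14.8 and 16.9 CPM in the Wnt6 deletion and 19.4 and 17.3 CPM in the Hmx1 deletion. The groups overlapped, replicate 3 of the Hoxa deletion stood above the rest, and the log2 fold change in the Hoxa deletion was 0.08 ± 0.14. A peak in the body of Zfp786 had a log2 fold change of 0.72 ± 0.18. A weak peak in the body of Zfp398, at 0.51 to 1.80 CPM, had one of 1.06 ± 0.41 and was not called.

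Zfp777, a KRAB zinc finger gene, held 5 peaks. The strongest of them, over its start (chr6:48047184-48048079), measured 20.6, 19.2 and 27.7 CPM in the Hoxa deletion, 15.2 and 14.9 CPM in the Wnt6 deletion and 9.80 and 8.66 CPM in the Hmx1 deletion. The groups did not overlap, and the log2 fold changes were 0.87 ± 0.15 in the Hoxa deletion and -1.10 ± 0.22 in the Hmx1 deletion. An adjoining peak inside the gene gave 0.90 ± 0.14 and -0.89 ± 0.23, and a peak just beyond the far end of the gene 0.87 ± 0.23 and -0.80 ± 0.35. At a peak further into the gene body the Hmx1 libraries, at 10.8 and 8.54 CPM, lay above the Wnt6 libraries, at 7.82 and 7.84 CPM, and the order of these groups was turned. The weakest peak of the gene held 0 counts in replicate 1 of the Hmx1 deletion, which at a total of 6016500 allows a level of up to 0.499 CPM. Over the 15 peaks near the genes from Zfp786 to Zfp777, Zfp212 left out, the median log2 fold change was 0.90 in the Hoxa deletion and -0.80 in the Hmx1 deletion. Leaving out Zfp212, which lies within this run, follows the values themselves, so that these medians are a description.

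Zfp212 lies among these genes, between Zfp282 and Zfp783, and its start peak (chr6:47920510-47921067) differed less. It measured 6.70, 5.96 and 8.18 CPM in the Hoxa deletion, 5.56 and 5.2 CPM in the Wnt6 deletion and 5.75 and 5.31 CPM in the Hmx1 deletion. The Hoxa libraries stood just above the rest, while the Wnt6 and Hmx1 libraries overlapped. The log2 fold change was 0.36 ± 0.17 in the Hoxa deletion and -0.20 ± 0.22 in the Hmx1 deletion. Zfp746, which encodes PARIS, a repressor that the ubiquitin ligase parkin targets for degradation, is the next gene after Zfp777. Its start peak (chr6:48085950-48086934) measured 16.9, 16.8 and 19.5 CPM in the Hoxa deletion, 14.1 and 14.3 CPM in the Wnt6 deletion and 17.1 and 13.1 CPM in the Hmx1 deletion. These groups overlapped, with log2 fold changes of 0.30 ± 0.13 and -0.14 ± 0.17. A weaker peak in the gene body gave 0.34 ± 0.15 and -0.31 ± 0.19.

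Zfp467, a zinc finger gene known from the choice of stromal precursors between fat and bone, lies apart from the first 8 genes and had the highest levels of the cluster. Its strongest peak (chr6:48437948-48440497) measured 197, 183 and 192 CPM in the Hoxa deletion, 181 and 162 CPM in the Wnt6 deletion and 176 and 191 CPM in the Hmx1 deletion. The peak over its start (chr6:48443935-48446214) measured 149, 141 and 151 CPM, 148 and 124 CPM, and 147 and 142 CPM in the same order. The groups overlapped at both peaks. Log2 fold changes in the Hoxa deletion were 0.10 ± 0.07 and 0.07 ± 0.08, and those in the Hmx1 deletion were 0.00 ± 0.08 and 0.02 ± 0.09. The smallest peak of the gene body was the only one of 5 near Zfp467 at which every Hoxa library lay above every other, with a log2 fold change of 0.36 ± 0.13. Over the 8 peaks of Zfp212, Zfp746 and Zfp467 the median log2 fold change was 0.23 in the Hoxa deletion and -0.04 in the Hmx1 deletion. These genes were grouped by their smaller changes, so that the gap to the other genes is built in.

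**Figure D3:**
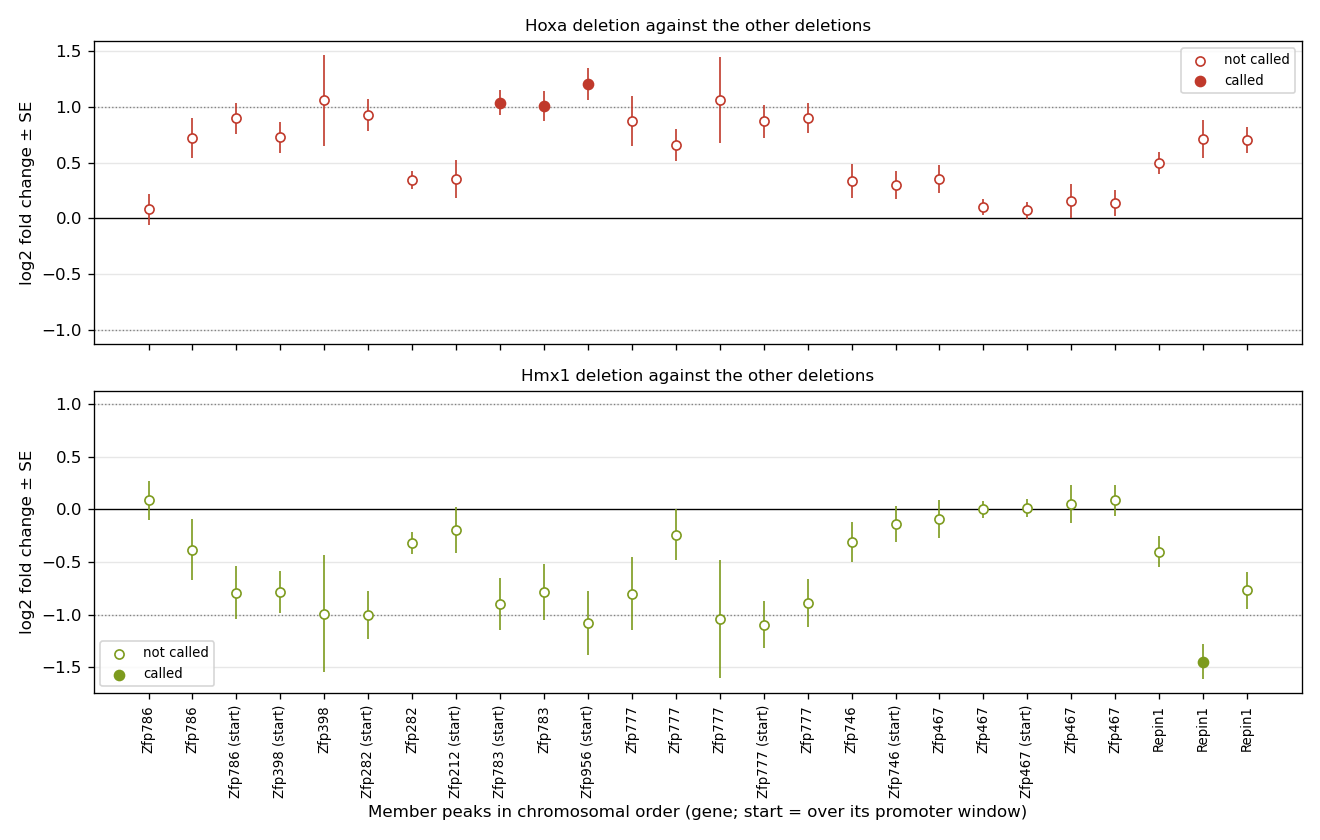
Log2 fold change ± SE of H3K27me3 at the 26 member peaks in chromosomal order, for the Hoxa deletion against the other deletions (top) and the Hmx1 deletion against the others (bottom). Filled dots are called peaks (3 at Zfp783 and Zfp956 in the top panel, 1 at Repin1 in the bottom panel), dotted lines mark 1 and -1, and 4 of the 5 Zfp467 peaks lie at 0.16 or less in the top panel, the other at 0.36.

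Repin1, whose product is a zinc finger protein first found at a replication origin, ends the cluster. Its peak in the gene body (chr6:48596348-48597874) measured 43.4, 42.1 and 50.4 CPM in the Hoxa deletion, 41.9 and 36 CPM in the Wnt6 deletion and 12.2 and 18.2 CPM in the Hmx1 deletion. Both Hmx1 libraries lay far below the other 5, and the Wnt6 libraries came close to the Hoxa libraries without overlap. The log2 fold change in the Hmx1 deletion was -1.45 ± 0.17, and this was the single member peak called lower there, in the comparison that chose the gene. Over all tested peaks 0.0242% were called lower. The count of members called lower was 4 without replicate 1 and 5 without replicate 2 of the Wnt6 deletion, and 9 against the Hoxa deletion alone. The share of all tested peaks called lower under these settings is not given here, so that the counts cannot be read as a trait of the members.

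The strongest Repin1 peak (chr6:48593312-48594873) measured 49.0, 47.5 and 51.1 CPM in the Hoxa deletion, 33.9 and 38.1 CPM in the Wnt6 deletion and 33.3 and 33.3 CPM in the Hmx1 deletion. The last member peak, just beyond the gene, over the start of the zinc finger gene Zfp775 (chr6:48601588-48602544), measured 30.6, 30.5 and 32.6 CPM, 22.3 and 21.6 CPM, and 16.7 and 15.7 CPM in the same order. At both, the Hoxa libraries stood above the rest and the Hmx1 libraries at the bottom. The log2 fold changes in the Hmx1 deletion were -0.40 ± 0.15 and -0.77 ± 0.18, less than at the peak between them.

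The Hoxa deletion was tested against the Wnt6 deletion at the 3 Repin1 peaks, since the choice of Repin1 rested on the Hmx1 libraries. The cluster itself was chosen in part for gains in the Hoxa deletion at other members. Peaks in the 1 Mb above the last member peak leaned the same way, with a median of 0.27 in this comparison. The test is therefore not fully independent of the choice. The strongest peak was higher in the Hoxa deletion by a log2 fold change of 0.44 ± 0.11, with an adjusted p of 0.00646 in edgeR's quasi-likelihood test and in 3 of 3 libraries. Over the alternatives its adjusted p ranged from 0.00284 to 0.106 and passed in 15 of 16, the exception being the fit without replicate 1 of the Wnt6 deletion. The peak over the start of Zfp775 was higher too, by 0.51 ± 0.12 with an adjusted p of 0.005 in edgeR and in 3 of 3 libraries. Its adjusted p ranged from 0.00351 to 0.137 and failed only without replicate 2 of the Wnt6 deletion. The gene body peak did not pass, at 0.23 ± 0.12 with an adjusted p of 0.326 in edgeR and a range of 0.266 to 0.993. None of the 3 reached a log2 fold change of 1. Among all 26 member peaks 1 was called in this comparison, that at the start of Zfp956, where the Hoxa libraries had served to choose the gene and the value is a description (1.06 ± 0.16). That count was 0 without replicate 3 of the Hoxa deletion. Over all tested peaks 1.23% were called, but that share also needs the fold minimum and is no background for the adjusted p alone. Without the minimum 13 of the 26 member peaks passed, and the matching share of all tested peaks is not given here.

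The Wnt6 deletion was tested against the Hmx1 deletion at the 23 peaks near the 9 genes other than Repin1, since the choice of these genes rested on the Hoxa libraries. The cluster was also chosen for less H3K27me3 at Repin1 in the Hmx1 deletion, so that this test is not fully independent of the choice either. None of them was called by edgeR or by DESeq2, and edgeR called 0.0887% of all tested peaks. The log2 fold changes ran from -0.28 to 0.74 with a median of 0.15, and 13 of 23 were above 0, while the median over all tested peaks was 0.01. An unadjusted p under 0.05 was found at 4 of the 23 peaks, and at 4212 of all 74441. The 4 were higher in the Wnt6 deletion. They were chosen after their values were seen and lay at the start of Zfp777 (0.74 ± 0.18, with an adjusted p of 0.0757 in edgeR), at the start of Zfp282 (0.56 ± 0.18), at the start of Zfp398 (0.43 ± 0.18) and inside Zfp777 beside its start (0.41 ± 0.18). Over the alternatives the adjusted p at the Zfp777 start ranged from 0.0146 to 0.472 and was under 0.05 in 5 of 16, among them library totals alone (0.0222) and the fit without replicate 3 of the Hoxa deletion (0.0185), but the log2 fold change stayed below 1. The Zfp783 start gave 0.26 ± 0.14, with an adjusted p of 0.895 in edgeR, and the Zfp956 start 0.33 ± 0.19, with an adjusted p of 0.903, and over the alternatives these were no lower than 0.507 and 0.532. The 1 member peak called in this comparison was the gene body peak of Repin1 (1.26 ± 0.14), which the Hmx1 libraries had chosen.

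Every Hoxa library lay above every other library at 20 of the 26 member peaks, and at 9.09% of all tested peaks. The 6 exceptions were the peak at the start of Pdia4, the Zfp746 start and 4 of the 5 Zfp467 peaks. Every Hmx1 library lay below every other library at 12 of the 26 member peaks, and at 8.01% of all tested peaks. These 12 comprised 6 of the 9 peaks over a member's start, those of Zfp786, Zfp398, Zfp282, Zfp783, Zfp956 and Zfp777, along with the far peak of Zfp282, the body peak of Zfp783, the Zfp777 peak beside its start and all 3 Repin1 peaks. Both orders used the libraries that chose the members.

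The 9 start peaks had a median log2 fold change of 0.87 in the Hoxa deletion and -0.79 in the Hmx1 deletion. The 17 other member peaks had medians of 0.66 and -0.38. For scale, the 11276 other peaks over a promoter window had medians of 0.06 and -0.03, and 13.5% of them had every Hoxa library on top.

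Levels per kb differed widely within the cluster. The strongest peak of Zfp467 held 71.8 CPM per kb (percentile 98.0 of all peaks), the start of the same gene 62.8 CPM per kb and the far peak of Zfp282 53.1 CPM per kb (percentile 95.4). The gene body peak of Repin1 held 22.9 CPM per kb, the Zfp783 start 24.9 CPM per kb and the Zfp956 start 28.4 CPM per kb. The start of Zfp212 held 10.9 CPM per kb. The median over the 26 member peaks was 17.8 CPM per kb, against 7.74 over all tested peaks. Across the 26 member peaks, Spearman's rho between this level and the log2 fold change in the Hoxa deletion was -0.55, and with that in the Hmx1 deletion 0.42. Over all tested peaks the same values were 0.06 and 0.09. The points share their libraries, the level is a mean over the same libraries as the change, and peaks of a gene are not independent, so that these values are a description.

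The surroundings of the cluster were read in the same way. Of 103 RefSeq genes that lie wholly in a window of 1.5 Mb around the cluster and are not members, 36 held peaks that were not member peaks. At their 65 peaks the median log2 fold change was 0.28 in the Hoxa deletion and -0.17 in the Hmx1 deletion, and none was called in either comparison. Weak peaks on either side of Repin1 fell further in the Hmx1 deletion than the Repin1 body peak. One near Lrrc61 and Rarres2 had -1.55 ± 0.40 and one near Gm38804 and Zfp775 -1.89 ± 0.61. Their means in the Hmx1 deletion were 0.86 and 0.20 CPM. The strongest Zfp775 peak (chr6:48619332-48621076), next to Repin1, had means of 71.7 ± 5.51 CPM in the Hoxa deletion (SD, n = 3), 52.2 ± 6.76 CPM in the Wnt6 deletion (SD, n = 2) and 38.9 ± 0.212 CPM in the Hmx1 deletion (SD, n = 2), with log2 fold changes of 0.65 ± 0.10 and -0.72 ± 0.15. Its groups did not overlap. A peak at Gm6443, which adjoins Zfp956, had a log2 fold change of 0.97 ± 0.16 in the Hoxa deletion. Against the Wnt6 deletion alone, 3 neighboring peaks were called higher in the Hoxa deletion, the one at Gm6443 (1.01 ± 0.20) and 2 among predicted genes Gm36327 and Gm40364 towards Ezh2 (1.15 ± 0.23 and 1.16 ± 0.36). Over all 74441 tested peaks 344 were called higher in this comparison. The 2 peaks towards Ezh2 had means of 6.49 and 2.67 CPM in the Hoxa deletion, 2.69 and 1.32 CPM in the Wnt6 deletion and 5.33 and 1.97 CPM in the Hmx1 deletion. Against both other deletions pooled they had 0.71 and 0.78.

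The 45 peaks in the 1 Mb below the first member peak had a median log2 fold change of 0.17 in the Hoxa deletion, and the 29 peaks in the 1 Mb above the last one had 0.33. Of these 29 peaks 2 were called higher, and so were 0.566% of all tested peaks. The 27 peaks between members that were not member peaks had 0.18. Over the 3952 other peaks of chromosome 6 the median was 0.01. In the Hmx1 deletion the same 4 medians were -0.06, -0.18, -0.16 and -0.01.

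**Figure D4:**
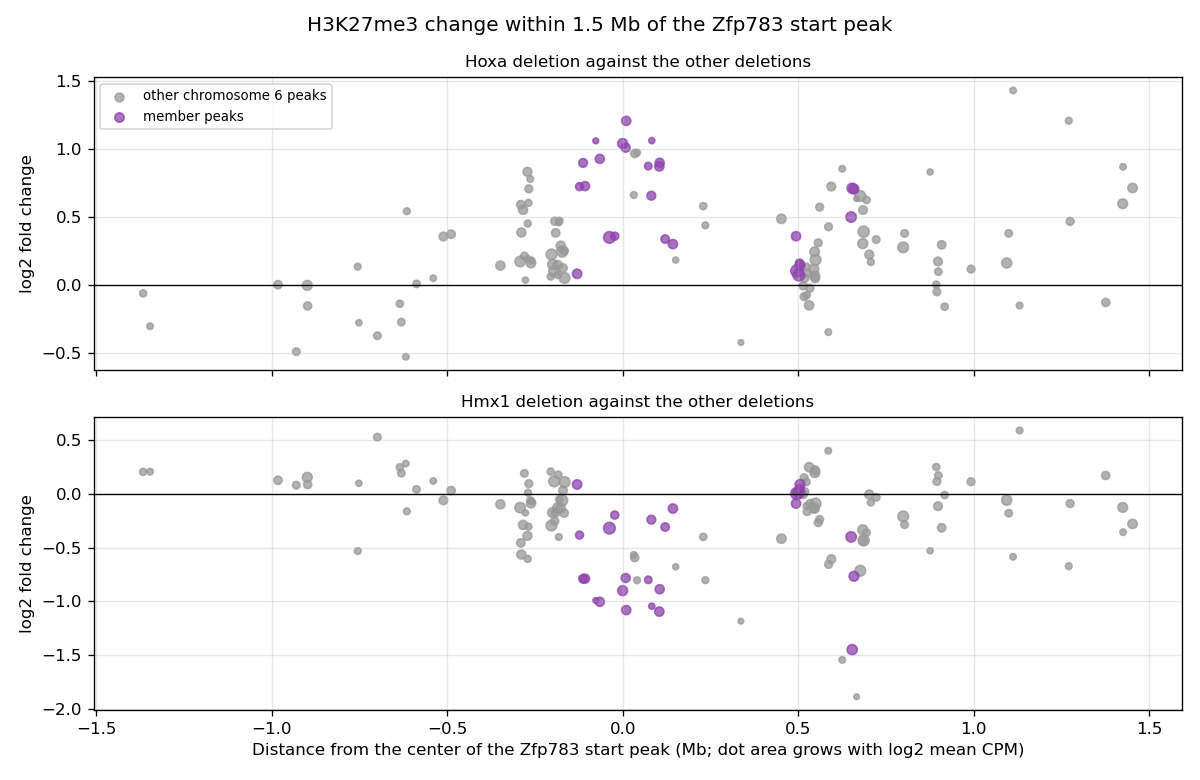
Log2 fold change of H3K27me3 against the distance from the center of the Zfp783 start peak (Mb), for the Hoxa deletion (top) and the Hmx1 deletion (bottom) against the other deletions, with a dot for each peak of chromosome 6 within 1.5 Mb (larger for higher mean CPM). Several member peaks around the Zfp783 start lie near 1 in the top panel, but those at Zfp212 (0.36) and the far end of Zfp282 (0.35) do not. Peaks close to the Zfp783 start that are not members reach 0.97. Weak ones 1.11 and 1.27 Mb above it (mean 1.82 and 2.25 CPM) reach 1.43 and 1.21. At Zfp467 the member peaks lie at 0.36 or less. At Repin1 they stand apart from 0 again, with the lowest member value of -1.45 in the bottom panel. Weak peaks on either side of Repin1 that are not members lie lower there, at -1.55 and -1.89.

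Other zinc finger genes of the mouse genome were read for scale. Of 363 other mouse genes named Zfp and a number, 268 held a peak. Their 649 peaks had median log2 fold changes of 0.08 in the Hoxa deletion and -0.08 in the Hmx1 deletion, and every Hoxa library lay above every other at 15.3% of them. In the Hoxa deletion 7 of the 649 were called higher and 1 lower. Over all 74441 tested peaks 421 were called higher and 732 lower.

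The window of 5 kb around each gene left few peaks near its edge. The member peaks farthest from a gene lay 2.051 kb from Zfp467, with a log2 fold change of 0.14 in the Hoxa deletion, and 2.506 kb from Repin1, with 0.71. The first peaks outside lay 7.24 kb from a member, with 0.18, and 9.524 kb from a member, with 0.66. The last of these measured 2.90, 2.06 and 1.35 CPM on average in the Hoxa, Wnt6 and Hmx1 deletions.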

How the data were processed

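H3K27me3 Cut&Tag libraries of mESCs with a Hoxa, Wnt6 or Hmx1 deletion were analyzed. The authors deposited raw counts over a shared peak list, in 1 table with 7 columns that match the sample titles. The submitters' processing notes name the build mm10 and the tools Bowtie2, Trimmomatic, SAMtools, Picard, MACS2 and deepTools without their roles. How the list was made from the libraries, and whether reads or fragments were counted, is not given in the sources used here, and a peak list drawn from part of the libraries would favour their strong peaks. Peak positions are as deposited, with the start convention unstated.

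Peaks were matched to genes and promoter windows of RefSeq (GRCm38.p6). The table of counts was filtered with filterByExpr by genotype (17 peaks removed, 74441 tested) and scaled by TMM, and each comparison was fitted over all tested peaks with glmQLFit and glmQLFTest (edgeR 4.0.16, limma 3.58.1, R 4.3.3). Pooled comparisons used 2 groups, the others a term for each deletion. P-values were adjusted by Benjamini-Hochberg over all tested peaks, and called means an absolute log2 fold change over 1 with an adjusted p under 0.05, the study's threshold. The study used DESeq2, which was run as an alternative (1.42.0). Standard errors are the absolute log2 fold change over the root of the F statistic. Plots were made with matplotlib 3.10.9 (Python 3.11.15).

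Named peaks were, for each member, the one with the highest mean CPM, at Zfp783, Zfp956 and Repin1 also the one with the largest change in the comparison that chose the gene, and any called peak. The strongest peak of a gene means the one with the highest mean CPM. Peaks over a start were added after their values were seen. Members and lists were chosen with earlier results of these data known. Counts were simulated over 74458 peaks with a fixed dispersion of 0.02. The test recovered 96% of peaks changed by 1.5 on the log2 scale in the Hoxa comparison with 2 false calls. For the Wnt6 against the Hmx1 deletion it recovered 80% with 6 false calls. Only changes of 1.5 and 2 were simulated, so that these rates do not describe the recovery of the smaller changes seen at the members. Alternatives were other size factors, filters, depth, windows and controls, DESeq2, a replicate block and each library left out.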

Additional observations from a re-analysis of the deposited data

How the results depend on the processing

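The count of 3 member peaks called higher in the Hoxa deletion became 6 with counts downsampled to the smallest library (a single draw), 1 against the Wnt6 deletion alone, 9 against the Hmx1 deletion alone and 15 with no minimum on the fold change, and it ranged from 1 to 6 when a library was left out. The count of 1 called lower in the Hmx1 deletion became 2 with chromosome medians removed, 2 downsampled, 3 in DESeq2, 2 with a term for each genotype and 9 against the Hoxa deletion alone, and ranged from 1 to 5 when a library was left out. The 1 call of the Wnt6 against the Hmx1 deletion kept its count under every alternative run, and stayed at 1 to 1 when a library was left out. The 1 call of the Hoxa against the Wnt6 deletion became 0 downsampled, 0 with the replicate block and 13 with no minimum on the fold change, and ranged from 0 to 1 when a library was left out. Leaving out a library lowers the number in a group to 2 or 1, where the lone library is assumed to vary like the others. Replicate numbers did not pair the libraries (deviations of same-numbered libraries correlated at -0.04 to 0.08), so that the block is only an alternative fit. The median log2 fold change of the members ranged from 0.53 (against the Wnt6 deletion alone) to 0.81 (against the Hmx1 deletion alone) in the Hoxa comparison, and from -0.81 (against the Hoxa deletion alone) to -0.15 (against the Wnt6 deletion alone) in the Hmx1 comparison. Of the values of named peaks under an alternative, 545 stayed within the SD between libraries or, where tested, kept their sign and side of the threshold, 72 moved further, and 7 of the tested ones changed sign. Values near 0 in the pooled comparisons also changed sign, and the Pdia4 start peak ranged from -0.19 to 0.23 in the Hoxa comparison, so that not every member peak stayed above 0 there. For the Wnt6 against the Hmx1 deletion, the Pdia4 start peak near Zfp786 gave 0.0095 downsampled, the Zfp212 start 0.015 with library totals alone, 0.026 without replicate 2 of the Wnt6 deletion and 0.0047 without replicate 1 of the Hmx1 deletion (range with a library left out -0.11 to 0.026), and the Zfp746 start 0.010 with library totals alone and 0.11 without that replicate (range -0.27 to 0.11). For the Hoxa against the Wnt6 deletion, the gene body peak of Repin1 gave -0.0054 downsampled. The cause of these shifts was not tested, and the counts under alternatives stand here without the share of all tested peaks called under each. At the depth of the smallest library the weakest peaks of Zfp398 and Zfp777 rest on few counts.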
